A study of Mus musculus with 285 samples.

Results

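The integrin and laminin genes were taken as all genes whose symbol starts with Itga, Itgb, Lama, Lamb or Lamc, without Itgad and without the Lamp and Lamtor genes, with values on no fewer than 80% of arrays. The rule found 34 of the 11622 named genes. Other symbols that fit the rule were not analysed here. Muscle of 285 F2 mice of either sex was measured, 1 array per mouse. The mice came from an intercross of F1 animals of 2 inbred strains, which the labels write as C57B1/J6 and C3H/HeJ. All of them ate chow with 4% fat up to 8 weeks of age and then, for 12 weeks, a Western diet that held 42% fat and 0.15% cholesterol. They were killed at 20 weeks after 12 hours without food. Each mouse (Cy3) was set against a pool of equal parts of RNA from all samples (Cy5). The labels name no muscle and give no sex or genotype for single mice, so the mice formed 1 group and the genes were followed from mouse to mouse.

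Integrins are cell surface receptors made of an alpha and a beta chain that tie the cell to the matrix around it or to other cells. Laminins are cross-shaped proteins of an alpha, a beta and a gamma chain that form the core of basement membranes. In skeletal muscle the laminin chain alpha 2, encoded by Lama2, lies in the basement membrane of the fibres and is bound by the integrin alpha 7 beta 1 and by dystroglycan, and loss of Lama2 or Itga7 causes muscular dystrophy. Vessels, nerves, tendon and immune cells in the same tissue use other sets of chains.

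All values are log2 ratios of mouse over pool. A ratio gives no absolute level, so neither the level of one gene against another nor the labelled tissue could be checked by its markers. Within single arrays the SD of the log2 ratios lay between 0.18 and 0.62 (median 0.29). Pairs of arrays correlated with an r between -0.745 and 0.801, and 2.48% of pairs lay below -0.3. Since single mice may deviate from their common pool in opposite ways, and the dyes are stated, the direction was kept. The mean linear ratio of Eif2s3y, a gene of the Y chromosome, was 0.796 in this direction and 23.2 with the sign turned, where a pool of the same mice gives about 1. In a piece of tissue, fewer cells of a type and less RNA per cell cannot be told apart.

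Spread over mice differed widely among the 34 genes. The median SD was 0.23, beside 0.21 for all named genes, and 17 of the 34 had an SD above that of the median named gene. In 10% or more of the mice, the ratio differed from the pool by 1.5-fold or more for 9 of the 34 (26.5%), beside 1832 of 11622 named genes (15.8%). These were Itgbl1, Itgax, Lamb3, Lama1, Lamc3, Itga6, Lama2, Itgb6 and Itga11. The count is 0 if the logarithm of the deposited values has base 2 and 1 if it is natural, since the base of their logarithm is not stated. At the other end, the fibronectin receptor gene Itga5 and the collagen receptor gene Itga10 had SDs of 0.11 and 0.10, below those of nearly all named genes.

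**Figure D1:**
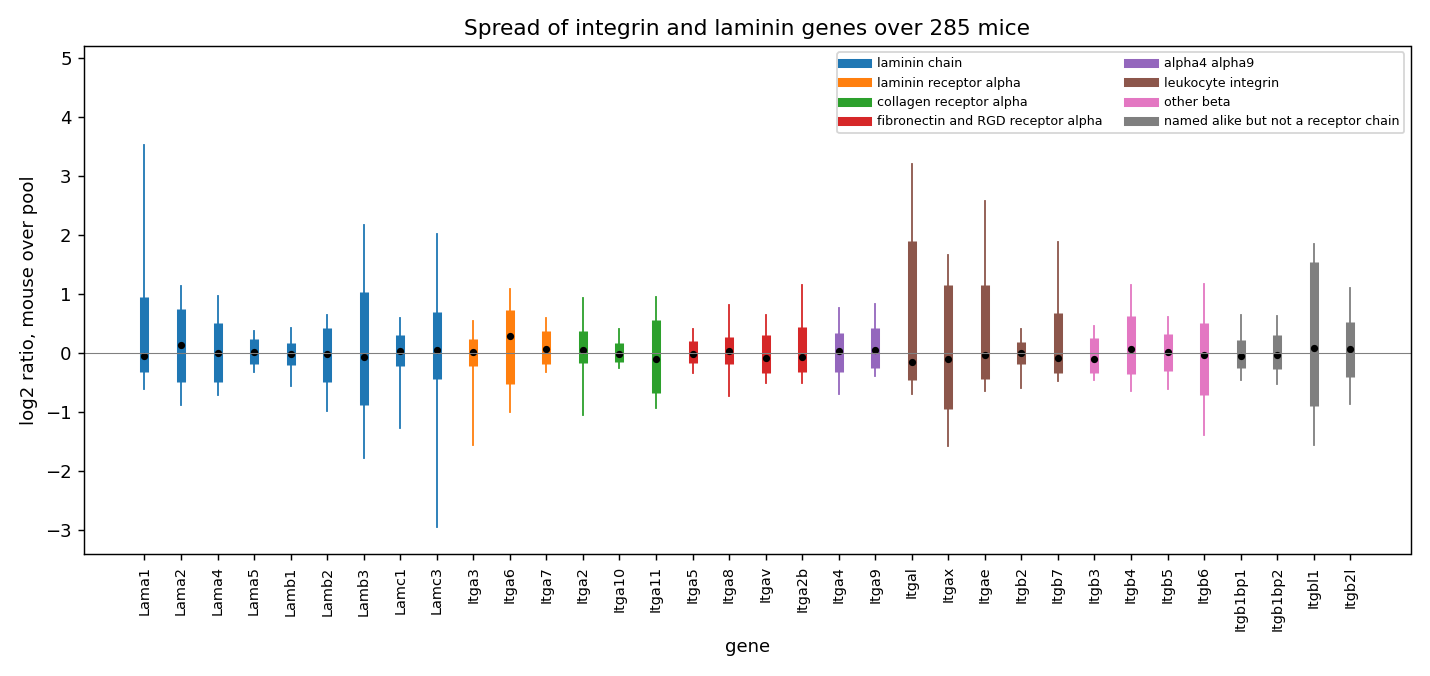
Log2 ratio of mouse over pool (vertical axis) for each of the 34 genes (horizontal axis), coloured by role. Thin lines run from the lowest to the highest of 285 mice, thick bars from the 5th to the 95th percentile, and black points mark the median. Lama1 reaches 3.53 and Itgal 3.20 although their medians are -0.05 and -0.15, while Itga10 stays between -0.25 and 0.41.

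To see which cells or fibres of the tissue a gene moved with, each gene was fitted on 9 scores. A score is the mean z value of genes that mark a cell type or fibre type, and none of the lists holds an integrin or laminin gene. A gene was said to rise or fall along a score where the adjusted p of limma was under 0.05 and the Pearson r was at least 0.3 in size. Lymphocyte, tendon, slow fibre and keratinocyte scores fell into separate clusters of mice, and fits used the larger cluster of 261, 202, 227 and 258 mice. In all, 24 of the 34 genes were called along at least 1 score, in 68 of 306 combinations of gene and score (50 rises and 18 falls). In 61 of the 68 combinations both r and Spearman's rho had the smallest two-sided permutation p that 100000 shuffles can give, 1e-05, and the largest permutation p was 0.00579. These shuffles treat mice as exchangeable, while many genes ran along the mouse number.

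Along the macrophage score 9 genes rose (26.5% of the 34), beside 7.33% of named genes, and limma called 0 as falling, beside 1.4% (6 fell at an unadjusted p under 0.05). Along the Schwann cell score 9 rose as well, beside 6.43%, and 0 fell, beside 3.9% (5 fell at an unadjusted p under 0.05, by limma). That count of rises was 1 with a smooth trend along the mouse number removed, 1 with the other 8 scores held and 4 without the mouse numbers 331 to 350. For matrix, 8 rose beside 9.89% and 3 fell beside 11.6%. For endothelium, 6 rose beside 12.1% and 3 fell beside 11.3%, and for smooth muscle and pericytes 6 rose beside 11.2% and 3 fell beside 13.5%. Along the lymphocyte score 7 rose and 4 fell, beside 23.5% and 17.9%. Along the tendon score 2 rose beside 0.577%, and limma called 0 as falling beside 0.00861% (3 fell at an unadjusted p under 0.05). Along the slow fibre score 2 rose and 2 fell, beside 1.15% and 1.4%, and along the keratinocyte score 1 rose and 3 fell, beside 3.3% and 1.74%. The scores are not independent of each other: endothelium and smooth muscle scores correlated at 0.807 over the mice, macrophage and matrix scores at 0.632, and matrix and tendon scores at 0.630.

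**Figure D2:**
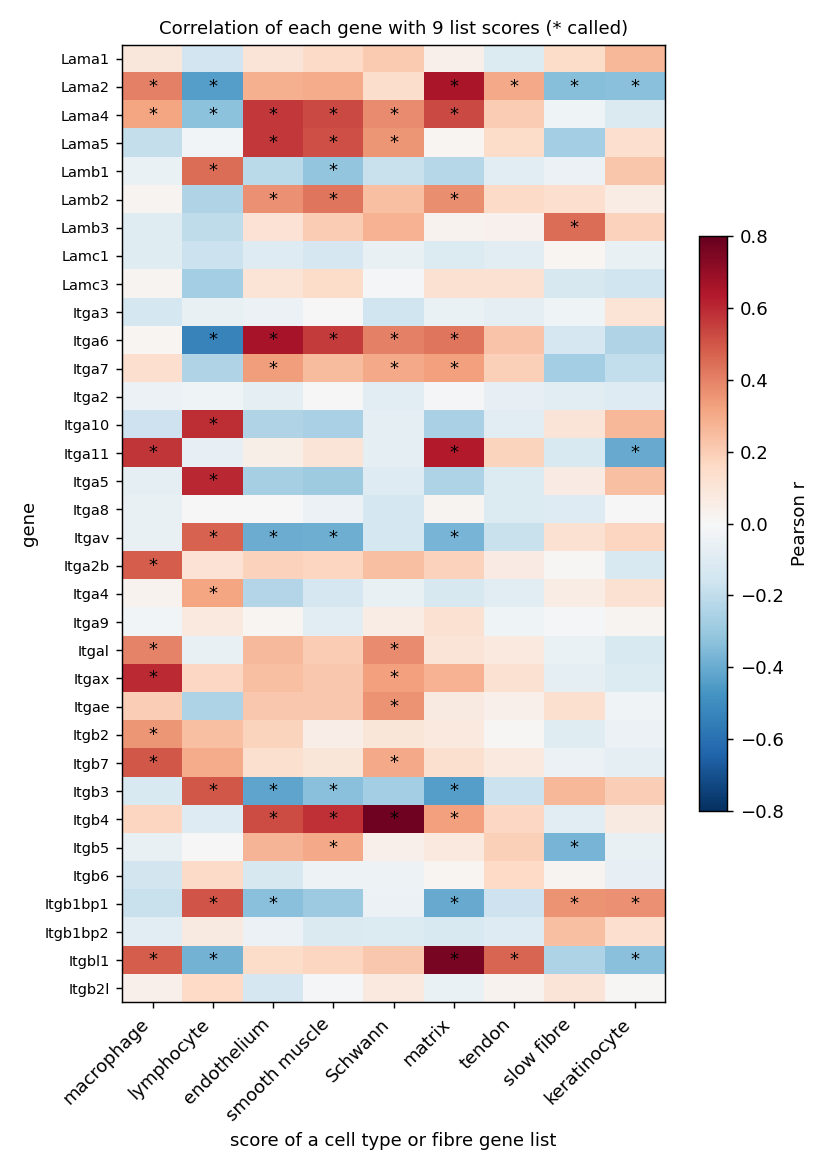
Pearson r (colour) of each of the 34 genes (rows, by role) with each of the 9 scores (columns), over 285 mice or the larger cluster of the score. Stars mark the 68 called combinations; the strongest are Itgb4 with the Schwann score (0.779) and Itgbl1 with the matrix score (0.756), and the rows of Lama1, Itga3 and Itga8 hold no star.

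Of the 9 laminin chains, Lama2, Lama4, Lama5, Lamb1, Lamb2 and Lamb3 were called along at least 1 score, and Lama1, Lamc1 and Lamc3 along none. Lama2, the chain of the muscle fibre basement membrane, ran from -0.88 over a median of 0.13 to 1.14. It rose most along the matrix score, by 0.24 ± 0.02 per SD of the score (SE, n = 285, r 0.651, adjusted p 1.05e-33). It also rose along the macrophage score (r 0.405) and, in the larger tendon cluster, along the tendon score (r 0.301 over 202 mice). Along the slow fibre score it fell (r -0.340 over 227 mice, and 0.0301 in the other 58). With the other 8 scores held in the same fit, the r of Lama2 was 0.223 with the matrix score, 0.0534 with the macrophage score, 0.156 with the tendon score and -0.296 with the slow fibre score, so none of these calls stayed. The genes most alike to Lama2 were Tgfbr3 (r 0.747), Ptpn13 (0.745) and Abca8a (0.744), and 0.517 to 0.555 was left of these r with the first principal component over all genes removed.

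Lama4 and Lama5, the alpha chains of vessel basement membranes, rose with the vessel cell scores. Lama4 had a lowest, median and highest value of -0.72, 0.00 and 0.97 and an r of 0.563 with the endothelium score, 0.530 with the smooth muscle score and 0.527 with the matrix score. Lama5 had a narrow spread, from -0.33 over 0.02 to 0.38, but its r reached 0.564 with the endothelium score and 0.517 with the smooth muscle score. With the matrix score its r was 0.0128. Per SD of the endothelium score Lama4 rose by 0.17 ± 0.01 (SE, adjusted p 2.78e-23) and Lama5 by 0.07 ± 0.01 (SE, adjusted p 5.68e-23). Lamb2, a beta chain of muscle, synaptic and vessel laminins, rose along the smooth muscle, matrix and endothelium scores with r of 0.427, 0.372 and 0.365. Its r with the endothelium score was 0.562 in the 143 mice of lower number and 0.0615 in the 142 of higher number. With the other 8 scores held, only the rise of Lama4 along the matrix score stayed among these calls (r 0.329), and the endothelium score left r of 0.221 for Lama4 and 0.283 for Lama5.

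Lamb3, a chain of the laminin of epithelial basement membranes, had the widest spread of the laminin chains, with an SD of 0.61 and values from -1.78 over -0.07 to 2.17. It rose along the slow fibre score by 0.25 ± 0.03 per SD (SE, adjusted p 4.30e-10), with an r of 0.448 in the larger cluster of 227 mice and 0.501 in the other 58. The r was 0.539 with a smooth trend along the mouse number removed and 0.476 with the other 8 scores held. Its r with the keratinocyte score, which marks the epithelium where the chain is best known, was 0.184, under the threshold. That fit used the 258 mice of the larger keratinocyte cluster and left out the other 27, so it does not cover them. Of all named genes, 99.7% had a smaller r in size with the slow fibre score. The genes most alike to Lamb3 over 285 mice were Cyfip2 (r 0.732), Selenbp2 (0.710) and Ctnnbl1 (0.687).

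Lama1, the alpha chain of embryonic basement membranes, lay between -0.61 and 3.53 with a median of -0.05, and 13 mice were at least 2-fold from the pool. It was called along none of the 9 scores. The lymphocyte, tendon, slow fibre and keratinocyte fits left out 24, 83, 58 and 27 mice, so they do not cover these mice. The median of Lama1 was highest in mouse numbers 331 to 350, at 0.65. The median lymphocyte, Schwann and keratinocyte scores were highest there too (1.35, 0.83 and 0.35). Most alike to Lama1 were the epithelial transcription factor gene Elf5 (r 0.804), Wfdc18 (0.786) and the epithelial tight junction gene Cldn3 (0.774). Lamc3 ranged from -2.94 over 0.06 to 2.02, and its most alike genes were Dcstamp, Gpr12 and Ccr4, with r of 0.608 to 0.616. Lamc1, the gamma chain of most laminins, was the only gene of the 34 with more than 1 probe. Its 2 probes had an r of 0.0589 over the mice, so the values of Lamc1 do not measure 1 common quantity. Lamb1, the other widespread beta chain, had values from -0.55 to 0.43, rose with the lymphocyte score (r 0.446) and fell along the smooth muscle score (r -0.315).

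Among the laminin receptor chains, Itga6 and the beta chain Itgb4 stood out, which together form the receptor alpha 6 beta 4 of epithelial cells and Schwann cells. Itgb4 ranged from -0.65 over 0.07 to 1.15. Along the Schwann score it rose by 0.23 ± 0.01 per SD (SE, n = 285, adjusted p 1.02e-55) with an r of 0.779 and a rho of 0.794. Of the named genes outside the list, 99.97% had a smaller r in size. The r was 0.730 in the 143 mice of lower number and 0.783 in the 142 of higher number, 0.690 with the trend along the mouse number removed and 0.696 with the other 8 scores held. The score rests on 8 measured genes of 13 listed, all of myelin or Schwann cells. Itgb4 rose along the smooth muscle and endothelium scores too (r 0.583 and 0.524). With the other 8 scores held these r were 0.348 and 0.00177.

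Itga6, which also pairs with beta 1 on endothelium, had values from -0.99 over 0.29 to 1.08. It rose along the endothelium score by 0.26 ± 0.02 per SD (SE, n = 285, adjusted p 8.58e-35, r 0.663), and the call stayed with the other 8 scores held (r 0.439). Its r with the smooth muscle score was 0.557, and 0.00378 with the other scores held. Its most alike genes, Arf4, Slc12a7 and Helz2, had r of 0.824 to 0.841 with it, and 0.425 to 0.451 with the first principal component over all genes removed. With the Schwann score its r was 0.401, and 0.134 with the trend along the mouse number removed. The other 7 rises along the Schwann score, of Lama4, Itgal, Itgae, Lama5, Itgax, Itgb7 and Itga7, did not stay with that trend removed, where r lay between 0.0919 and 0.283. Itga7, the alpha chain of the laminin receptor of muscle fibres, varied little, from -0.33 over 0.07 to 0.59. Its r was 0.332 with the endothelium score, 0.327 with the matrix score and 0.302 with the Schwann score. None of these calls of Itga7 stayed with the other 8 scores held. Itga3, an alpha chain of epithelial laminin receptors, followed no score, and its lowest value of -1.56 was that of 1 mouse whose Itga2 was also the lowest of all mice.

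**Figure D3:**
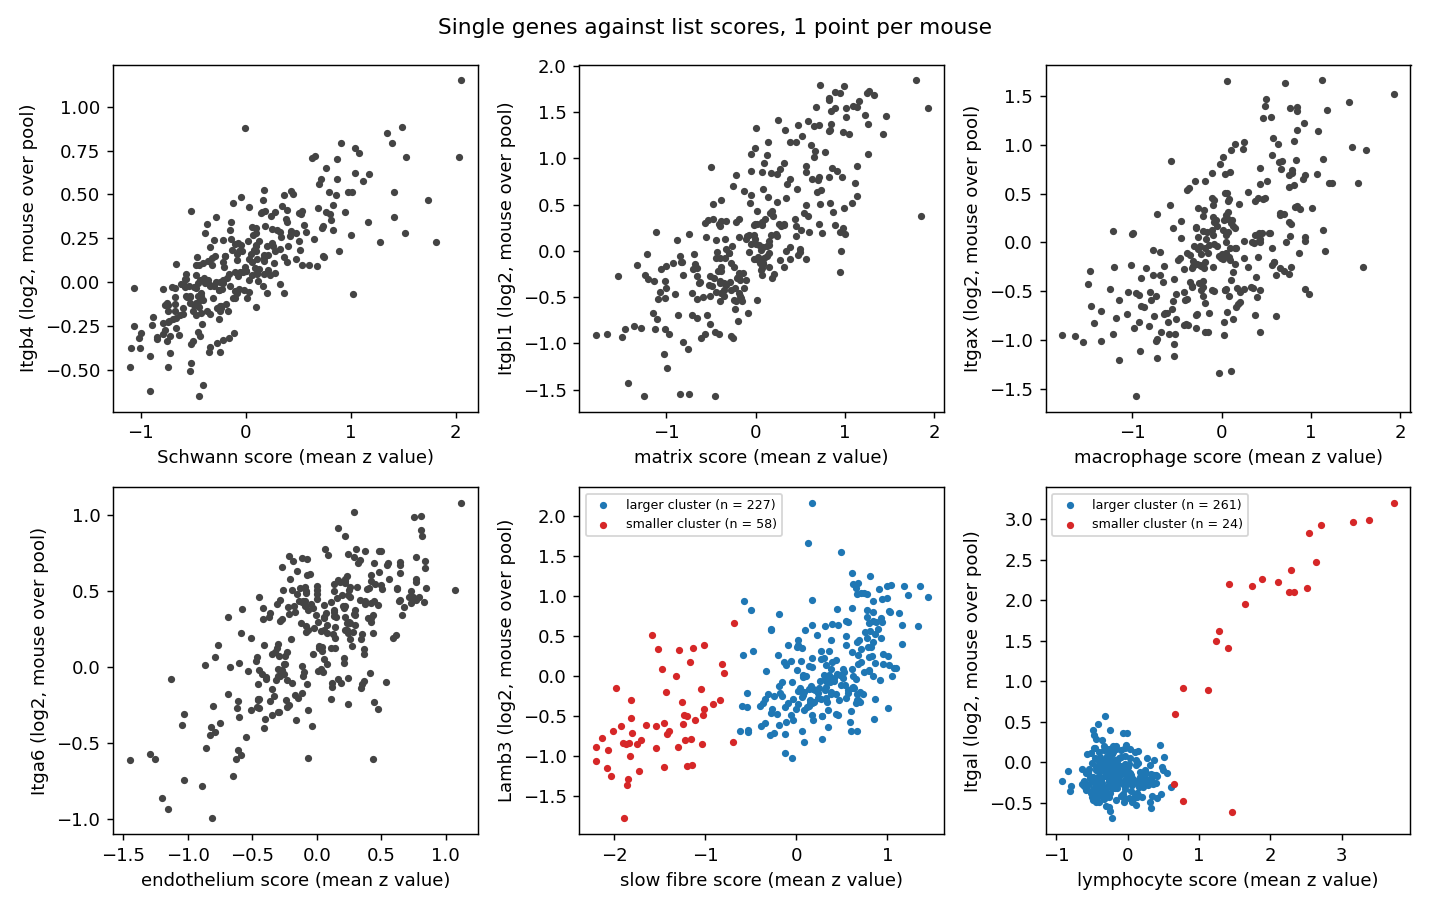
Log2 ratio of 6 genes (vertical axes) against the score each is set beside (horizontal axes, mean z value), 1 point per mouse. For slow fibre and lymphocyte scores blue points are the larger and red points the smaller cluster of mice. Itgb4 rises evenly along the Schwann score (r 0.779), while Itgal follows the lymphocyte score within the smaller cluster.

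Itgbl1, Itga11 and Lama2 led the genes that rose along the matrix score, a list of fibroblast collagens and other matrix genes. Itgbl1 encodes a secreted protein named for its likeness to a stretch of integrin beta chains and is not a receptor chain. It had the largest SD of the 34, 0.74, with values from -1.57 over 0.08 to 1.84, and it was at least 2-fold from the pool in 55 mice. It rose along the matrix score by 0.56 ± 0.03 per SD (SE, n = 285, adjusted p 9.68e-52, r 0.756). In the larger tendon cluster it rose along the tendon score with an r of 0.467 over 202 mice, and r was 0.712 in the other 83. With the other 8 scores held both calls stayed (r 0.319 with the matrix score and 0.363 with the tendon score). Its most alike genes were the tenocyte gene Tnmd (r 0.862), the collagen-binding receptor gene Antxr1 (0.855) and Serpinf1 (0.846). Tnmd and Serpinf1 belong to the tendon and matrix lists.

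Itga11, the alpha chain of a collagen receptor of fibroblasts, had a lowest, median and highest value of -0.93, -0.11 and 0.95. Its r was 0.635 with the matrix score and 0.574 with the macrophage score, and 0.246 and 0.277 with the other 8 scores held. Its r with the matrix score was 0.690 with the trend along the mouse number removed and 0.657 with the first principal component over all genes removed. Itgbl1 and Lama2 had an r of 0.755 with each other. Of the other collagen receptor chains, Itga2 followed no score and Itga10 was called along the lymphocyte score alone.

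Because these 3 genes rose together along the matrix score, the 250 bases before their start sites are shown from RefSeq on GRCm38.p6, 5′ to 3′ on the strand of the gene. Matches to the E-box CANNTG, the motif bound by basic helix-loop-helix factors such as the tendon factor scleraxis, are in capitals. The windows are chr14:123659890-123660139 on the plus strand for Itgbl1, chr9:62677605-62677854 on the plus strand for Itga11 and chr10:27616943-27617192 on the minus strand for Lama2.
Itgbl1: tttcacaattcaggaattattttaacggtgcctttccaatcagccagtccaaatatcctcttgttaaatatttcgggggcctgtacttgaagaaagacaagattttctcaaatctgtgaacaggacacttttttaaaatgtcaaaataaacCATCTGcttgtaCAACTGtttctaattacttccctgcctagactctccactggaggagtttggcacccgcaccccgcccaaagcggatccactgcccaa
Itga11: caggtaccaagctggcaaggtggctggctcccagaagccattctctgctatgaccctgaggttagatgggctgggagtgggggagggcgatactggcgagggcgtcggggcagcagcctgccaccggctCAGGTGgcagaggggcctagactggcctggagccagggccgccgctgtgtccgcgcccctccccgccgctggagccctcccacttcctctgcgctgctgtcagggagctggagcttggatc
Lama2: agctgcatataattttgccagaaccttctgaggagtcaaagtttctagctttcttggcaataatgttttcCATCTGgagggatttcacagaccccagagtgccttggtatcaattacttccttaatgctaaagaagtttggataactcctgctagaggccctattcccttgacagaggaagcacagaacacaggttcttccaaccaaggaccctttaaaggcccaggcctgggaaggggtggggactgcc
The Itgbl1 window holds 2 matches and the windows of Itga11 and Lama2 hold 1 each. The motif reads the same on both strands, and it occurs in 66.2% of the 32851 RefSeq windows of this length, so a match is common. Among the 25 windows that the table holds for 22 of the 34 genes, 21 had a match.

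Along the keratinocyte score Itga11, Itgbl1 and Lama2 fell, with r of -0.402, -0.336 and -0.332 over 258 mice. None of these calls stayed with the trend along the mouse number removed, where r lay between -0.161 and -0.120, nor without the mouse numbers 51 to 90 and 271 to 310. Itgb1bp1, which encodes a protein that binds the tail of beta 1, rose along the same score (r 0.368, and 0.183 with the trend removed).

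The receptor chains for fibronectin and other RGD ligands, Itgav, Itga5, Itga8 and the platelet chain Itga2b, fell into different patterns. Itgav ran from -0.51 over -0.09 to 0.65 and the beta chain Itgb3 from -0.45 over -0.11 to 0.46. Both fell along the endothelium score (r -0.396 and -0.421), the smooth muscle score (-0.394 and -0.334) and the matrix score (-0.373 and -0.443), and rose along the lymphocyte score (0.475 and 0.496 over 261 mice). Itga5, Itga10, Itgb1bp1, Lamb1 and Itga4 rose along the lymphocyte score as well, with r from 0.318 to 0.604, and Itga6, Lama2, Itgbl1 and Lama4 fell, with r from -0.533 to -0.326. As a share of the 34 genes the rises make 20.6% and the falls 11.8%, beside 23.5% and 17.9% of named genes. In the smaller cluster of 24 mice, where the score is high, the r of Itga5 was -0.432, of Itga10 -0.529 and of Itgb3 -0.583.

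The same genes lay along the first principal component over all genes, which holds 15.2% of the variance. Itga6 correlated with it at 0.822, Lama2 at 0.628 and Itgbl1 at 0.580, while Itgb3 lay at -0.828, Itgb1bp1 at -0.784, Itgav at -0.729, Itga10 at -0.695, Itga5 at -0.691 and Lamb1 at -0.607. The component is not particular to these genes: 17 of the 34 had an r of at least 0.3 in size with it, beside 53.9% of all named genes. With the component removed, the 11 r with the lymphocyte score lay between -0.199 and 0.159, and no call stayed. The falls of Itgb3 and Itgav along the endothelium, smooth muscle and matrix scores went to r between -0.0790 and 0.101. Of the 57 calls along the other 8 scores, 31 kept an r of at least 0.3 in size and their sign with the component removed, among them Itgb4 with the Schwann score (0.760), Itgbl1 with the matrix score (0.661) and Itgax with the macrophage score (0.592). What the component measures was not tested.

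Itga2b, the alpha chain of the platelet fibrinogen receptor, had values from -0.50 over -0.07 to 1.16. It rose along the macrophage score (r 0.487, and 0.218 with the other 8 scores held). With the lymphocyte score its r was 0.113 over the 261 mice of the larger cluster and 0.769 in the other 24. Over all mice its r was 0.772 with Itgb7, 0.744 with Itgal and 0.646 with Itgae. Within the larger clusters of these genes, described below, the r were 0.442, 0.263 and 0.0782. Its median was highest in mouse numbers 331 to 350, at 0.44. Itga8, a chain of smooth muscle and fibroblast receptors, followed no score and stayed between -0.73 and 0.81. Itga9 followed none either. Itga4, the partner of beta 1 and beta 7 on lymphocytes, had its only call along the lymphocyte score (r 0.318). That fit used the 261 mice of the larger lymphocyte cluster and left out the other 24. Over all 285 mice the r of Itga4 was -0.0411 with Itgal, 0.00257 with Itgb7 and 0.0235 with Itgae.

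The leukocyte integrins gave 2 patterns. Itgax, which encodes the alpha chain CD11c of a receptor of macrophages and dendritic cells, varied continuously from -1.57 over -0.10 to 1.66. It lay at least 1.5-fold above the pool in 52 mice and at least 1.5-fold below it in 59. It rose along the macrophage score by 0.38 ± 0.03 per SD (SE, n = 285, adjusted p 2.90e-27, r 0.599). With the other 8 scores held r was 0.478, and it was the only rise along the macrophage score that stayed a call. Its most alike genes were Adam8 (r 0.818), the macrophage elastase gene Mmp12 (0.801) and the lipid receptor gene Trem2 (0.789), none of them in the macrophage list. Itgb2, the beta chain shared by Itgax and Itgal, had an SD of only 0.12, with values from -0.59 over -0.01 to 0.41, and rose along the same score (r 0.352, by 0.04 ± 0.01 per SD, SE, adjusted p 2.70e-08).

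Itgal, Itgae and Itgb7, chains of lymphocyte receptors, each fell into 2 separate clusters of mice. The 22 mice of the smaller Itgal cluster lay between 0.57 and 3.20 with a median of 2.16, and the other 263 between -0.69 and 0.48 with a median of -0.18. For Itgae 23 mice had a median of 1.31 and for Itgb7 18 mice a median of 1.14. Altogether 17 mice belonged to the smaller cluster of all 3 genes, and all 17 were among the 24 mice of the smaller lymphocyte score cluster. Within the smaller clusters the r with the lymphocyte score was 0.933 for Itgal, 0.836 for Itgae and 0.949 for Itgb7. Within the larger clusters it was -0.121, -0.149 and 0.346, and with the trend along the mouse number removed it was 0.465, 0.266 and 0.619, so that the sign turned for Itgal and Itgae. Of each smaller cluster, 10 mice had numbers from 331 to 350, a run of 18 mice in which the median lymphocyte score was 1.35. The part of lymphocyte numbers in these values was not tested.

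Within the larger clusters the same genes had further correlations. Itgb7 had an r of 0.537 with the macrophage score over 267 mice and Itgal of 0.371 over 263 mice. Itgae had an r of 0.509 with the slow fibre score over 262 mice, which span both clusters of that score, and 0.395 with the trend along the mouse number removed. Its r was 0.332 in the 205 of these mice that belong to the larger slow fibre cluster and 0.600 in the other 57. In the fit over all 227 mice of that cluster Itgae was not called (r 0.127, adjusted p 0.174 by limma). The genes most alike to Itgal over all mice, which rest on these clusters, were Ptprcap, the interleukin 2 receptor gene Il2rb and the chemokine receptor gene Ccr6, and within the larger cluster their r with Itgal was 0.464, 0.488 and 0.208. For Itgae they were Il2rb, Ptprcap and the macrophage receptor gene Marco, with r of 0.243, 0.211 and 0.136 within its larger cluster. Their rises along the Schwann score rest on the clusters too, since r within the larger clusters was 0.202 for Itgal, 0.173 for Itgae and 0.0465 for Itgb7.

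Of the remaining chains, Itgb5, a partner of alpha v, fell along the slow fibre score (r -0.374 over 227 mice, -0.388 with the other 8 scores held, and -0.0832 in the other 58) and rose along the smooth muscle score (r 0.303, and 0.209 with the other scores held). Itgb1bp1 rose along the slow fibre score (r 0.356, and -0.00791 in the other 58). Itgb6, the epithelial partner of alpha v, had an SD of 0.37 and values from -1.40 to 1.16 but followed no score. Most alike to it were a gene listed as DNAJB12 (r 0.686), Hmgb1 (0.601) and Prrx1 (0.596). Itgb2l, an integrin beta 2-like gene, and Itgb1bp2, which encodes the muscle protein melusin, followed none, nor did Itga2, Itga3, Itga8, Itga9, Lama1, Lamc1 and Lamc3. For the scores with separate clusters this covers the larger cluster of mice only. Melusin stayed between -0.53 and 0.62.

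Whether chains that form 1 protein vary together was asked for 22 known pairs of chains, of 39 listed. The 22 hold no pair of the beta chain Itgb1, so its pairs with Itga6 and Itga7 are left out. Limma was run for all genes on the beta or gamma chain, and a pair was called at an r of at least 0.3 and an adjusted p under 0.05. This held for 4 of the 22, 3 of 9 integrin pairs and 1 of 13 laminin pairs. Of the 13, 6 rest on Lamc1, whose 2 probes disagree, so they say little about its chains. Itgb2 and Itgax had an r of 0.472 and a rho of 0.460 (permutation p 1e-05 for each, 2.75e-05 and 5.50e-05 adjusted over the 22 pairs). Itgax ranked 8 among 11621 named genes in its r with Itgb2, of which 2.87% were called. The r was 0.510 and 0.464 in the lower and higher mouse numbers and 0.498 with the first component removed. Itgb2 and Itgal, the other pair of that beta chain, had an r of 0.254. It was 0.370 with the trend along the mouse number removed, 0.309 with the first component removed and 0.0973 within the larger Itgal cluster of 263 mice.

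The other 3 called pairs lay where more named genes were called. Itgb4 and Itga6 had an r of 0.426 where 9.57% of named genes were called with Itgb4, and 0.161 with the trend along the mouse number removed. Itgb3 and Itgav had an r of 0.541 where 25.7% of named genes were called with Itgb3, and with the first component removed the sign turned (-0.162). In the higher mouse numbers their r was 0.0929. Lamb2 and Lama5 had an r of 0.316 beside 7.61% of named genes called, and 0.0744 in the higher numbers. Among pairs not called, Itgb5 and Itgav had an r of -0.2999, and Lamb1 had an r below 0 with each of Lama1, Lama2, Lama4 and Lama5 (-0.282 to -0.121). In their r with Lamb1 these alpha chains ranked from 7567 to 9876 among 11621 named genes. The 21.2% of named genes called with Lamb1 are rises only. With the first component removed the r of the Lamb1 pairs lay between -0.0217 and 0.197, above 0 for Lama2 and Lama5. For Itgb7, with 4.39% of named genes called, the r with Itgae was -0.0441 over 267 mice and 0.749 in the other 18, and over the 267 it was 0.374 with the trend along the mouse number removed. For Itgb6 the share was 3.76%, for Itgb5 8.57% and for Lamc1, whose 6 pairs lay between -0.106 and 0.0278, 0.275%.

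Over all 561 pairs of the 34 genes the median r was -0.0164, beside -0.00524 for all pairs of named genes. An r of at least 0.3 was found in 64 pairs (11.4%, beside 10.05%), of which 25 kept it with the first component removed. Among the 25 were the pairs of Itgal, Itgae and Itgb7 with each other. Their r was 0.731 to 0.879 over all mice and -0.0694 to 0.297 within the larger clusters of these genes. An r of -0.3 or less was found in 37 pairs (6.59%, beside 8.53%), of which 1 kept it. Itga4 and Itgb2l, which form no known receptor, had an r of 0.685 and a rho of 0.674, with 0.697 after the first component was removed. Itgb1bp1 and Itgb3 had 0.653, and 0.0103 after removal.

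**Figure D4:**
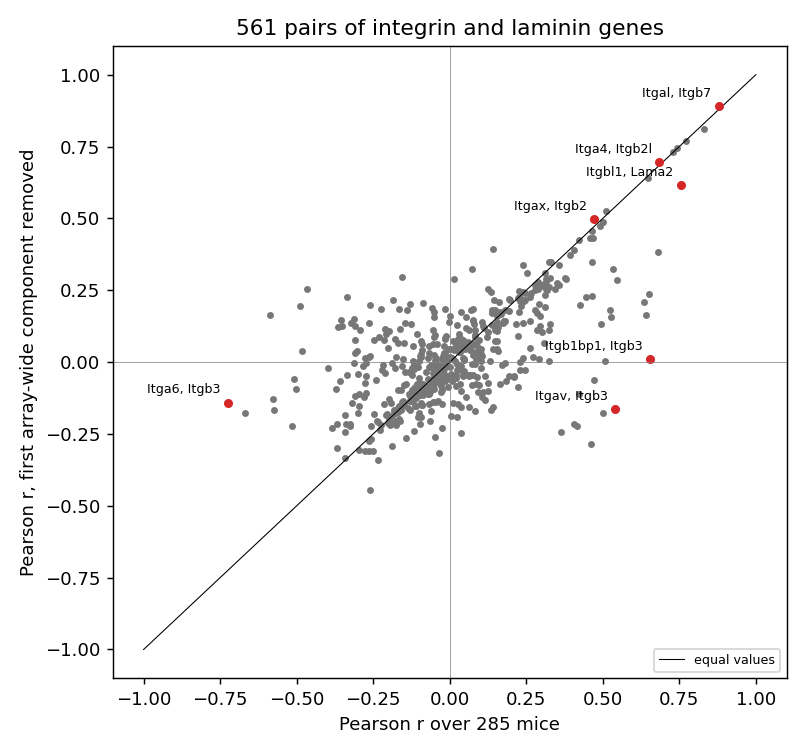
Pearson r of the 561 pairs of genes over 285 mice (horizontal axis) against the r with the first array-wide component removed (vertical axis), 1 point per pair, with the line of equal values. Itga4 with Itgb2l stays near the line (0.685 and 0.697). Itgbl1 with Lama2 goes from 0.755 to 0.616 and Itga6 with Itgb3 from -0.726 to -0.141.

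The mouse number is the only order the labels give, and what it stands for is not given in the sources used here. Between runs of 20 numbers, 22 of the 34 genes differed (64.7%; limma F test, adjusted p under 0.05 and at least 0.2 of the variance between runs), beside 47% of named genes. With runs of 40 numbers the count was 11 of 34 (32.4%), beside 27.4% of named genes. Runs held 0.497 of the variance of Itga6, whose median was -0.24 in numbers 111 to 130 and 0.71 in 311 to 330. For Itgbl1 the share was 0.494, with medians of 1.41 in 271 to 290 and -0.36 in 131 to 150. In 271 to 290 the median tendon and matrix scores were the highest of all runs, at 1.27 and 0.83. The median slow fibre score was low there (-1.14) and the macrophage score was 0.36. Itga11, Itga7, Itgb4 and Itgb3 had shares of 0.463, 0.429, 0.421 and 0.421, and Itgb4 was highest in numbers 331 to 350, at 0.51. Itgb2, Lamc1 and Lamc3 had the smallest shares, 0.0684, 0.0545 and 0.0548, with adjusted p of 0.218, 0.437 and 0.423.

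**Figure D5:**
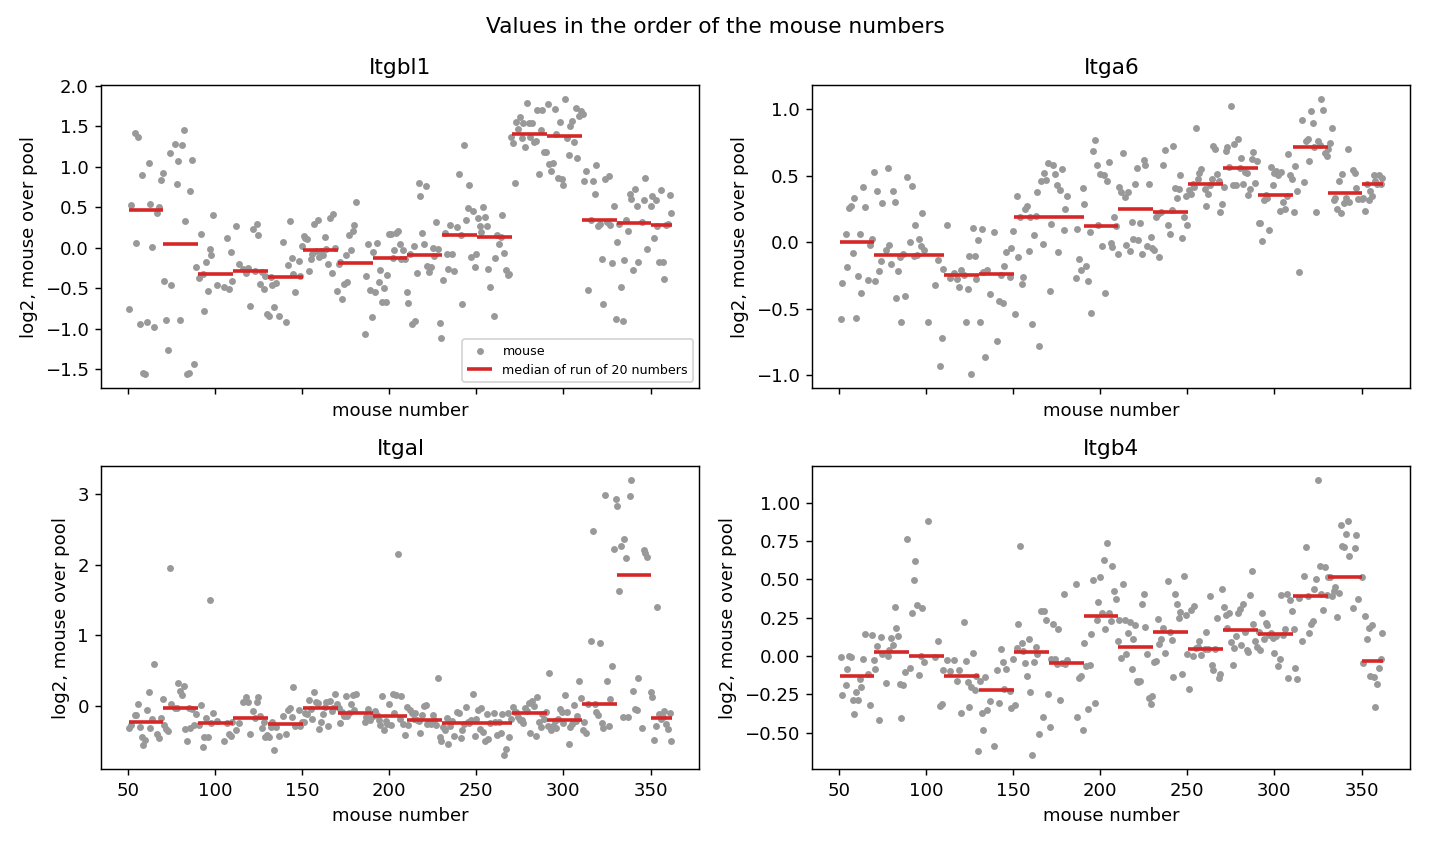
Log2 ratio (vertical axes) of Itgbl1, Itga6, Itgal and Itgb4 in the order of the mouse numbers (horizontal axes). Grey points are mice and red bars the medians of runs of 20 numbers. Itgbl1 is highest in numbers 271 to 290 (median 1.41), and Itgal in 331 to 350 (median 1.86).

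The molecules that laminins and integrins bind gave a frame for these values, as a list of 39 genes of the basement membrane, the dystroglycan complex and the integrin tail, of which 28 were measured. Along the endothelium score 15 of the 28 rose and 3 fell, led by the basement membrane collagen genes Col4a1 (r 0.730) and Col4a2 (0.696) and the adhesion adaptor gene Lims2 (0.706). Along the matrix score 13 rose and 2 fell, led by Col15a1 (0.805), the laminin linker gene Nid1 (0.759) and the sarcoglycan gene Sgce (0.746). Along the smooth muscle score 14 rose and 4 fell, with the actin crosslinker gene Flna at 0.785, Lims2 at 0.688 and Col4a2 at 0.669. Along the Schwann score 10 rose and 1 fell, with Flna at 0.488, Sgce at 0.476 and Lims2 at 0.443, so no gene of that list reached the r of Itgb4. Along the macrophage score 7 rose, with Nid1 at 0.474, Sgce at 0.453 and Col18a1 at 0.447. Along the lymphocyte score 6 rose and 12 fell, among them the dystrophin gene Dmd (-0.600) and its relative Utrn (-0.555), and the focal adhesion gene Pxn rose (0.584). Along the keratinocyte score 1 gene rose, Pxn (0.329), followed by Tln2 (0.273) and Sspn (-0.269) under the threshold. Limma called 0 of the 28 along the tendon score and 0 along the slow fibre score, where 17 and 12 had an unadjusted p under 0.05. The largest r in size there were those of Nid2 (0.256), Lims2 (0.253) and Col4a1 (0.246) for tendon and of Sgcb (0.220), Cd151 (-0.220) and Col4a2 (-0.210) for slow fibres. Between runs of mouse numbers 22 of the 28 differed. The shares of named genes called were those given above.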

How the data were processed

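Muscle RNA of 285 mice was isolated on Qiagen RNeasy columns with DNase treatment and amplified and labelled with an automated aminoallyl MessageAmp II protocol, per the labels. The authors deposited 1 value per probe and mouse for 23560 probes. Deposited values were taken to be log10 ratios, mouse over pool; the labels do not state the logarithm, and the scanner, background correction and normalization are not given in the sources used here. Array medians of the deposited values lay between -0.0222 and 0.0173, and values stop at -2 and 2. Whether arrays had been centred before deposit is not stated in the sources used here. Signal over background is unknown, and the number of arrays limits the precision.

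Probes measured on 80% of arrays or more were kept (23510), and missing values (0.0972%) were set to the probe mean. Of all probes, 13653 carried 1 gene symbol, 48 several and 9859 none, and 12650 symbols were updated by Entrez identifier through RefSeq (GRCm38.p6). Probes of a gene were averaged and values converted to log2, giving 21512 genes and unnamed probes. Every one of these was fitted on each score, given as SDs of the score, with limma 3.58.1 in R 4.3.3 (lmFit, eBayes), and p-values were adjusted by Benjamini-Hochberg over all outside the score's list. Separate clusters were taken where a mixture of 2 normals (mclust 6.1.1) gained over 10 in BIC, with means over 3 SD apart and at least 5% of mice in each. The trend along the mouse number was a loess fit with a span of 0.15. In data simulated for 1 score over 285 mice and 21512 features, 98% of features made with an r of 0.4 were recovered. Of those made with 0.5, 100% were recovered, and 0 false calls were made in all. The simulated features were independent of each other and of the mouse number, unlike the measured genes. The count of false calls therefore does not carry over to the measured genes.

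The genes, lists, pairs and tests were chosen with earlier results of these data known. All 34 genes are accounted for. For the 10 with the largest SD, the 3 genes outside the 34 with the highest r were named as most alike. Genes of the adhesion list were named where theirs were among the 3 largest r in size along a score. Alternatives covered the call rule, probes of a gene, array scale, 12 arrays of outlying spread, the trend along mouse numbers, the first component, the other scores, the width of runs, the base of the logarithm and the minimum share of values.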

Additional observations from a re-analysis of the deposited data

How the results depend on the processing

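Over 104 alternative settings of 13 results, 71 stayed within 1.5 times the count given (or, for the SD, within its spread over genes) and 33 did not. With the adjusted p alone, 16 genes were called along the macrophage score, 23 along the lymphocyte, 24 along the endothelium, 17 along the matrix, 4 along the tendon, 20 along the Schwann, 9 along the slow fibre, 14 along the keratinocyte and 24 along the smooth muscle score. With the other 8 scores held, 2 were called along the macrophage, 1 along the endothelium, 2 along the matrix, 1 along the tendon, 1 along the Schwann, 0 along the keratinocyte and 1 along the smooth muscle score. With the first component removed, 2 were called along the lymphocyte, 4 along the endothelium, 4 along the matrix, 4 along the Schwann, 2 along the keratinocyte and 5 along the smooth muscle score, and 2 partner pairs. With the trend along the mouse number removed, 7 were called along the lymphocyte, 1 along the Schwann and 0 along the keratinocyte score. Without 12 arrays of outlying spread 1 was called along the tendon score. The 2 settings that leave out runs of mouse numbers were chosen after seeing the data: without numbers 331 to 350 the count was 1 along the tendon and 4 along the Schwann score, and without 51 to 90 and 271 to 310 it was 0 along the keratinocyte score. At an unadjusted p under 0.05, limma gave 15, 12 and 15 genes for the 3 counts of 0 along the keratinocyte score (other scores held, trend removed, runs left out). Runs of 40 numbers gave 11 genes in place of 22. The count of genes 1.5-fold from the pool was 0 in base 2 and 1 in base e, and the median SD was 0.070 and 0.10. Another base only rescales every value, so these changes are arithmetic. The cause of the other shifts was not tested. No paired analysis was possible because the labels form 1 group. Depth is unknown, as no signal was used here.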
